A study of Rattus norvegicus with 8 samples.

Results

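The cells described here are the Wfdc18-positive cells of the CGRP week 12 library, 1890 of the 10370 barcodes of that library that held at least 5000 unique molecular identifiers (UMIs, the tags that mark single captured transcripts). A barcode stands for a captured cell, and it was called positive when it held at least 3 Wfdc18 UMIs. The positive barcodes were thus selected on their own Wfdc18 counts, and were set against the 6494 barcodes of the library with at least 5000 UMIs and 0 Wfdc18 UMIs, called zero barcodes. The remaining 1986 barcodes held 1 or 2 Wfdc18 UMIs and belong to neither class. Over the 8 libraries of the series, 2195 of 69624 barcodes were positive by the same rule.

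The study measured single-cell expression in cells of the callus, the tissue that forms around a healing fracture, from Sprague Dawley rats. Each combination of treatment and week after the femoral fracture was a single library. At weeks 4 and 12 the groups were untreated controls, rats given zoledronate (ZOL, a bisphosphonate that inhibits bone resorption, under the skin at 0.3 mg/kg each week), rats given zoledronate and CGRP (calcitonin gene-related peptide, a neuropeptide of sensory nerves), and rats given zoledronate and magnesium (Mg). The CGRP library therefore shares zoledronate with the ZOL and Mg libraries, and the control libraries are labelled untreated although the treatment text given for every library names zoledronate. The labels name steel and magnesium-containing nails without saying which group had which, and neither the dose of CGRP nor the number of animals behind a library was stated in the labels. Cells released from callus with collagenase were kept in a dish for 24 h, so these are cells that survived culture.

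Wfdc18 encodes a small secreted protein of the whey acidic protein (WAP) family. WAP proteins carry a disulfide-bonded core, and several of them, such as Slpi, inhibit serine proteases outside the cell. Fibroblastic cells of the callus lay down collagen and proteoglycan matrix and release growth factors and chemokines into it.

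Wfdc18 has a neighbouring copy in the rat genome, Wfdc18l1, and the sequences just before each gene's annotated start were compared. Both are RefSeq sequences of the GRCr8 assembly, on the plus strand of chromosome 10, with 250 bases each. Wfdc18 is at chr10:69086069-69086318 and Wfdc18l1 at chr10:69036290-69036539. Capitals mark the aligned positions at which the sequences differ.
Wfdc18: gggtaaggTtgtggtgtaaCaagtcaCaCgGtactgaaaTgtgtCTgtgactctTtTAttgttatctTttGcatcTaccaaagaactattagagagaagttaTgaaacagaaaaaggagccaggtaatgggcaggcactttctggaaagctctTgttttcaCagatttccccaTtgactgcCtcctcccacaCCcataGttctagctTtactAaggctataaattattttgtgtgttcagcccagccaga
Wfdc18l1: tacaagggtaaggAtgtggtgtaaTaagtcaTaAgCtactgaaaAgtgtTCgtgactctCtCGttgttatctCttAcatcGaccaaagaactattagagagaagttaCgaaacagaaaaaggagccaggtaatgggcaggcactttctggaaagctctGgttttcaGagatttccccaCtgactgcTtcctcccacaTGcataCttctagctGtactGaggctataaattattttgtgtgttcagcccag
They were identical at 221 of 245 aligned positions (90.2%), with 24 differences and 0 gaps. Both held the TATA box letters TATAAA on the plus strand, starting 33 bases before the Wfdc18 start and 28 bases before the Wfdc18l1 start. These letters, searched on both strands, were in 12.9% of 33469 RefSeq windows of the same length. Neither sequence held TTCNNNGAA, the letters of a STAT site (7.67% of windows), or TGACGTCA, the letters of a cyclic AMP response element (1.59% of windows). A match is only a match of letters. The labels do not say how reads shared by the copies were counted, so Wfdc18 counts may include reads of Wfdc18l1.

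Wfdc18-positive barcodes were concentrated in a single library. In the CGRP week 12 library they made up 18.2% of the barcodes with at least 5000 UMIs (95% interval 17.5% to 19%, exact Clopper-Pearson). In the 7 other libraries the share lay between 0.0963% (Mg, week 4; 7 barcodes) and 1.43% (ZOL, week 12; 133 barcodes). The CGRP week 12 library held 86.1% of all positive barcodes of the series and 88.8% of its Wfdc18 UMIs.

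The other CGRP library, at week 4, had 21 positive barcodes of 8055 (0.261%, 0.161% to 0.398%), and was within the range of the libraries without CGRP. At week 12 the control library had 73 positive barcodes (0.939%, 0.736% to 1.18%), the Mg library 42 (0.525%, 0.379% to 0.709%) and the ZOL library 133 (1.43%, 1.2% to 1.7%). Within each treatment, the week 12 share was above the week 4 share, with counting intervals that did not overlap. The selection used the CGRP week 12 library, so the CGRP pair adds no support. Over the control, ZOL and Mg treatments, whose libraries the selection did not use, week 12 was higher in 3 of 3 pairs, by a mean of 2.61 ± 1.09 on the log2 scale (SD, n = 3). An exact two-sided paired permutation test, added after the values were seen, gave p = 0.25, the smallest that 3 pairs allow. Treatments were not tested against each other, as each is 1 library at a week, and animals, dish and treatment cannot be told apart. All intervals here cover counting error only.

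The high share did not go with high sequencing depth. The CGRP week 12 library had the lowest median depth of the 8, at 12544 UMIs per barcode, against up to 19852 elsewhere. With each barcode thinned to 5000 UMIs, 9.99% of its barcodes still had at least 3 Wfdc18 UMIs, and the others had 0.0138% to 0.485%. Summed over all barcodes, Wfdc18 stood at 211 counts per 1000000 UMIs (CPM) in this library and at 0.637 to 11.1 CPM in the other 7.

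**Figure D1:**
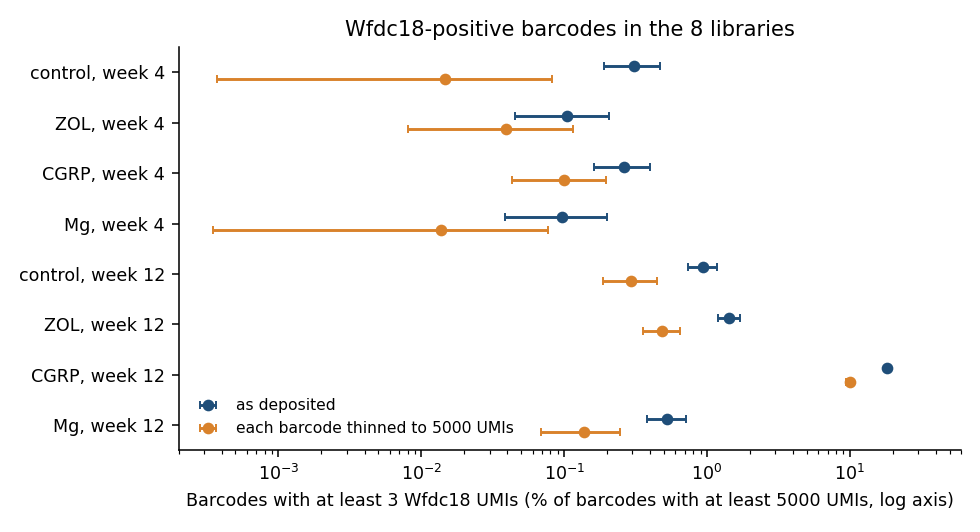
Share of barcodes with at least 3 Wfdc18 UMIs in each library, in % of barcodes with at least 5000 UMIs on a log axis, as deposited (blue) and after thinning every barcode to 5000 UMIs (orange), with exact 95% intervals for counting error. The CGRP week 12 library stands at 18.2% and 9.99%, and no other library is above 1.43%.

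Among the positive barcodes, the amount of Wfdc18 varied widely. The lowest held 3 UMIs, the median 8 and the highest 198, with quartiles at 4 and 17. The 189 highest barcodes held 41.7% of the members' Wfdc18 UMIs. The members together held 91.4% of the library's 31239 Wfdc18 UMIs.

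The rule's threshold cut through a continuous range. There were 317 barcodes with exactly 3 Wfdc18 UMIs and 505 with exactly 2, with similar median depths of 14768 and 14947 UMIs. Lum was at 215 CPM (203 to 229) just inside the threshold and at 178 CPM (169 to 188) just outside it. Ccl2 was at 74.0 CPM (66.6 to 81.9) just inside and at 141 CPM (133 to 150) just outside. A further 20 barcodes with at least 3 Wfdc18 UMIs were among the 300 left out for holding under 5000 UMIs.

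Positive barcodes were somewhat deeper than zero barcodes, with medians of 14044 and 12176 UMIs. More of them, 6.56% against 2.97%, held over 2 times the library's median depth. Doublets were not removed, and their part in these results was not tested. Of the members, 27 had a barcode sequence that also occurs in another library, and the library shared 13 to 26 barcode sequences with each of the other 7.

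The barcodes carried the markers of fibroblastic cells, whether or not they held Wfdc18. The 10 fibroblastic markers were all measured and summed to 45796 CPM in positive and 42366 CPM in zero barcodes, led by the type I collagen gene Col1a1 at 19808 and 18106 CPM. Epithelial markers, of interest because WAP genes are best known from epithelia, were near 0. Of these 12 markers 2 were listed, Krt8 and Krt7, summing to 3.17 CPM in positive and 3.28 CPM in zero barcodes, and Epcam and Cdh1 were not listed.

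Macrophage markers summed to 15.4 CPM in positive and 32.7 CPM in zero barcodes, with 8 of 12 listed. The lysozyme gene Lyz2 had 22 UMIs in positive barcodes, never more than 1 per barcode, and 979 in zero barcodes, of which 10 barcodes held 912. Ptprc, the pan-leukocyte marker CD45, had 0 UMIs in positive and 10 in zero barcodes. Endothelial markers were at 50.1 and 49.1 CPM, with 7 of 10 listed and Cdh5 not listed. Most of that sum was Egfl7, at 43.6 and 43.5 CPM, and Tek was at 6.13 and 4.58 CPM. Pecam1 was at 0.138 and 0.455 CPM and Kdr at 0.0344 and 0.364 CPM.

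Free RNA in droplets can place UMIs in cells that do not make them. The 9 barcodes with at least 10 Lyz2 UMIs, a set picked after the data were seen, held 0 Wfdc18 UMIs at a median depth of 12320. Of 9 barcodes, 0 still allows a share of up to 33.6% (exact 95% limit). Among the other barcodes, 37.4% of 10361 held at least 1 Wfdc18 UMI at a median depth of 12742.

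The comparison of positive with zero barcodes asked what else these cells expressed. UMIs were summed over each class, scaled to CPM without Wfdc18, and compared as log2 ratios of CPM plus 1. This compares barcodes of 1 library, so no test was made, and the gene values are a description of cells picked by a gene of their own. Of 7099 genes with a mean of at least 5 CPM, 51 (0.718%) were at least 1.5-fold higher and 131 (1.85%) at least 1.5-fold lower in positive barcodes. With TMM or DESeq2 scaling the split was 76 higher and 102 lower, so the balance of directions depends on the scaling. The median log2 ratio over all genes was -0.07 and the SD 0.22.

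Matrix and growth factor genes were among those furthest above the zero barcodes. Lum, a small leucine-rich proteoglycan that regulates collagen fibrils, was at 299 CPM (293 to 306, exact Poisson 95% interval) in positive and 124 CPM (121 to 126) in zero barcodes. Its log2 ratio was 1.27, and it was seen in 82.0% of positive and 43.2% of zero barcodes. At equal depth of 5000 UMIs those shares were 60.6% and 28.1%.

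Selenop, a secreted selenium carrier, was at 239 CPM (234 to 245) in positive and 96.5 CPM (94.4 to 98.5) in zero barcodes, a log2 ratio of 1.30. Peg3, a paternally expressed imprinted gene for a zinc finger protein, had the highest ratio among genes with a mean of at least 20 CPM, 1.41, at 49.6 and 18.1 CPM. Igf1, the insulin-like growth factor, was at 539 CPM (531 to 548) against 282 CPM (279 to 286), a log2 ratio of 0.93. In each of these genes the intervals of the classes were far apart. The genes were chosen for their ratios in these same barcodes, and the intervals cover counting error only, so this adds no support.

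Other matrix genes followed. Col11a1, a minor fibrillar collagen of cartilage and growing fibrils, was at 1111 and 661 CPM (log2 ratio 0.75), and Aspn, a proteoglycan related to Lum, at 73.5 and 42.4 CPM (0.78). Srgn, the core protein of intracellular proteoglycan granules, was at 40.9 and 23.0 CPM (0.80). The remaining genes among the 12 highest were Wnt16, a WNT ligand (1.2), Slc1a3, a glutamate transporter (1.2), Tenm3, a cell surface teneurin (1.17), Itgbl1, an integrin beta-like protein (1.05), and Dmrt2, a transcription factor (0.97).

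The genes furthest below were led by chemokines and an IGF binding protein. Ccl2, the chemokine that draws monocytes, was at 89.1 CPM (85.7 to 92.6) in positive and 268 CPM (265 to 272) in zero barcodes, a log2 ratio of -1.58. Ccl7, a related chemokine, was at 112 CPM (108 to 116) and 278 CPM (275 to 282), a log2 ratio of -1.30. At equal depth Ccl2 was seen in 15.8% of positive and 29.3% of zero barcodes, and as deposited in 29.1% and 41.8%. The 10 highest positive barcodes held 23.6% of the Ccl2 UMIs of their class, and the 10 highest of the larger zero class held 5.96%. Macrophages also make these chemokines, and the macrophage markers summed to 15.4 and 32.7 CPM; their part in the result was not tested.

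Igfbp3, which binds IGF1 outside the cell, was at 210 CPM (204 to 215) and 519 CPM (514 to 524), a log2 ratio of -1.30. Thus the ligand Igf1 was higher and its binding protein Igfbp3 lower in the same class of barcodes. Fabp3, a fatty acid binding protein, was at 61.9 and 146 CPM (-1.22), and Ckb, brain-type creatine kinase, at 112 and 244 CPM (-1.12). Hsd11b1, which regenerates active glucocorticoid, was at 51.3 and 106 CPM (-1.04).

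Other genes among the 12 lowest were Actg2 (-1.2), a smooth muscle actin, Rarres1 (-1.10), Foxs1 (-1.03), a forkhead factor, Slc16a3 (-1.02), a lactate transporter, and Rps4y2 (-1.06). Rps4y2 resembles the ribosomal gene Rps4x, and reads of the genes may have been shared. Actg2 rested on few barcodes: 10 barcodes held 37.7% of its UMIs in the positive class and 10 held 17.0% in the zero class. It was seen in 9.10% of positive and 11.7% of zero barcodes.

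Lum and Igfbp3 differed more with more Wfdc18 in a barcode. Over the classes of 0, 1, 2, 3 to 4, 5 to 9, 10 to 19, 20 to 49 and at least 50 Wfdc18 UMIs, Lum was at 124, 161, 178, 224, 268, 334, 385 and 450 CPM. Igfbp3 ran the other way, at 519, 380, 315, 236, 231, 194, 171 and 143 CPM. Both moved in 1 direction at each step, also within the positive barcodes. That held for 4 of the 12 highest and 2 of the 12 lowest genes. All 24 lay on their own side of the zero barcodes at 50 or more Wfdc18 UMIs. Those barcodes are part of the class on which the genes were chosen, so this adds no support. Others of the 24 had no even course. Actg2 was at 37.2, 31.5 and 57.4 CPM with 0, 1 and 2 UMIs. Dmrt2 was at 29.9 CPM with 3 to 4 and 29.0 CPM with at least 50.

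Peg3 was at 18.1 CPM with 0 Wfdc18 UMIs and 80.5 CPM with at least 50, and Selenop at 96.5 and 348 CPM. Ccl2 was at 268 CPM with 0, 88.0 CPM with 3 to 4 and 69.3 CPM with at least 50 Wfdc18 UMIs, so most of its difference was already present at the threshold. Col14a1, a fibril-associated collagen, was at 173 CPM with 0, 299 CPM with 10 to 19 and 278 CPM with at least 50. From 1 UMI up, the median depth of these classes lay between 13310 and 14947 UMIs, with no order by Wfdc18.

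**Figure D2:**
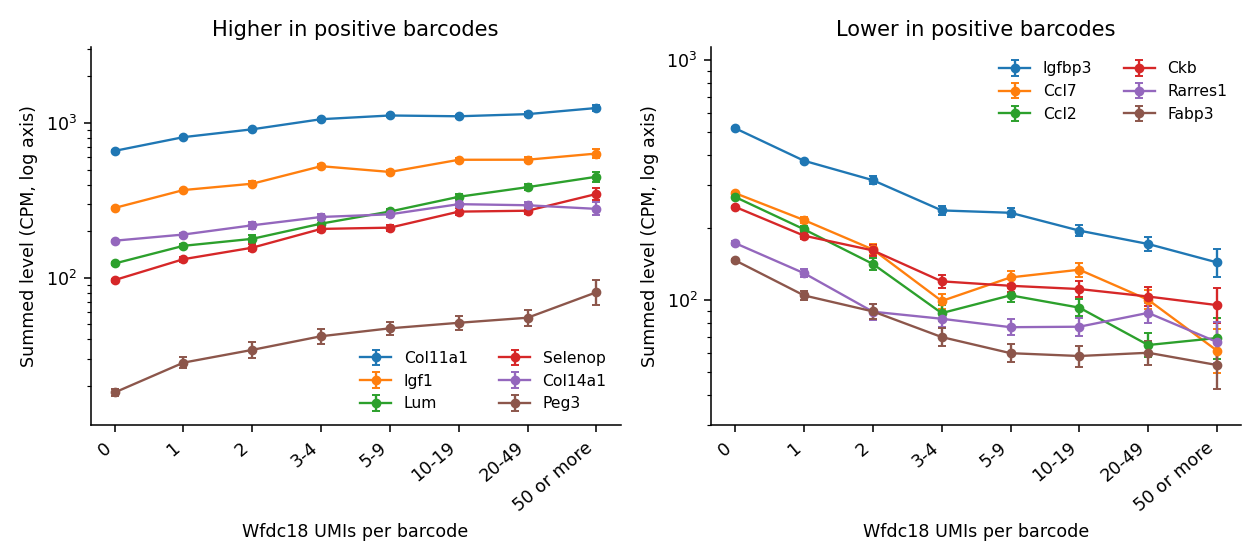
Summed level of 12 genes, in CPM on a log axis, over barcodes of the CGRP week 12 library grouped by their Wfdc18 UMIs, with exact Poisson 95% intervals. Lum goes from 124 to 450 CPM and Igfbp3 from 519 to 143 CPM between 0 and at least 50 Wfdc18 UMIs.

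Lum was also the gene most like Wfdc18 across single barcodes. Over the 10370 barcodes thinned to 5000 UMIs and 5688 genes seen in at least 5% of them, its Pearson correlation with Wfdc18 was 0.305, followed by Selenop (0.244), Col11a1 (0.233), Rpl41 (0.196) and Igf1 (0.193). The next included Rpl37, Col8a1, Rpl27a and Rpl11, down to 0.172. The median over all genes was -0.008. These are descriptions over barcodes of a single library, which share its depth and make-up, and the correlations are weak.

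Clustering made without Wfdc18 placed most positive barcodes in 1 of 4 clusters. That cluster, led by Lum, Aspn, Selenop and Igf1, held 58.5% of the positive barcodes, and 32.9% of its 3358 barcodes were positive (31.3% to 34.5%). A small cluster of 639 barcodes, led by Zfp36l1 and Dkk3 and the deepest at a median of 22608 UMIs, had 33.8% positive (30.1% to 37.6%). A cluster led by Cenpf and Ube2c had 12.3% of 2243 (11.0% to 13.7%), and the largest cluster, led by Rarres1 and G0s2, 7.09% of 4130 (6.33% to 7.92%). Wfdc18 stood at 450 CPM in the cluster led by Lum and 228 CPM in the small one. It was at 100 CPM in the cluster led by Cenpf and 86.05 CPM in that led by Rarres1. Clusters are called here by their leading genes and were given no cell type.

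Inside the clusters the directions largely held. The genes were chosen on these same barcodes, which the clusters only divide, so this adds no support. The 12 highest genes were above 0 in all 4 clusters, with median log2 ratios of 1.33 in the Rarres1 cluster, 0.26 in the Lum cluster, 0.93 in the Cenpf cluster and 0.64 in the small cluster. Of these 12, only 2 were at least 1.5-fold higher within the Lum cluster, against 12 in the Rarres1, 12 in the Cenpf and 7 in the small cluster. Within the Lum cluster Igf1 was at 678 and 633 CPM, Col11a1 at 1263 and 1160 CPM, and Aspn at 108 and 103 CPM. Lum itself was at 429 CPM in positive and 314 CPM in zero barcodes of the Lum cluster, and in the Rarres1 cluster at 216 and 70.4 CPM. The 12 lowest genes were below 0 in 3 clusters, and in the Lum cluster 10 of 12 were, all except Rarres1 and Hsd11b1.

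When the zero barcodes were weighted to the cluster make-up of the positive ones, an alternative chosen after seeing the data, 16 genes were at least 1.5-fold higher and 21 lower. All 24 genes, chosen on these same barcodes, kept their direction. Only 3 of the 12 highest and 7 of the 12 lowest stayed 1.5-fold apart. Of the 29 further genes chosen from the gene lists, 28 kept their direction and 4 stayed 1.5-fold apart. Their median log2 ratio went from -0.73 to -0.22. The log2 ratio of Peg3 was then 0.78, the log2 ratio of Lum 0.57 and the log2 ratio of Ccl2 -0.88. The clusters were built from these same genes. The effect of that and the effect of cluster make-up cannot be told apart here.

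**Figure D3:**
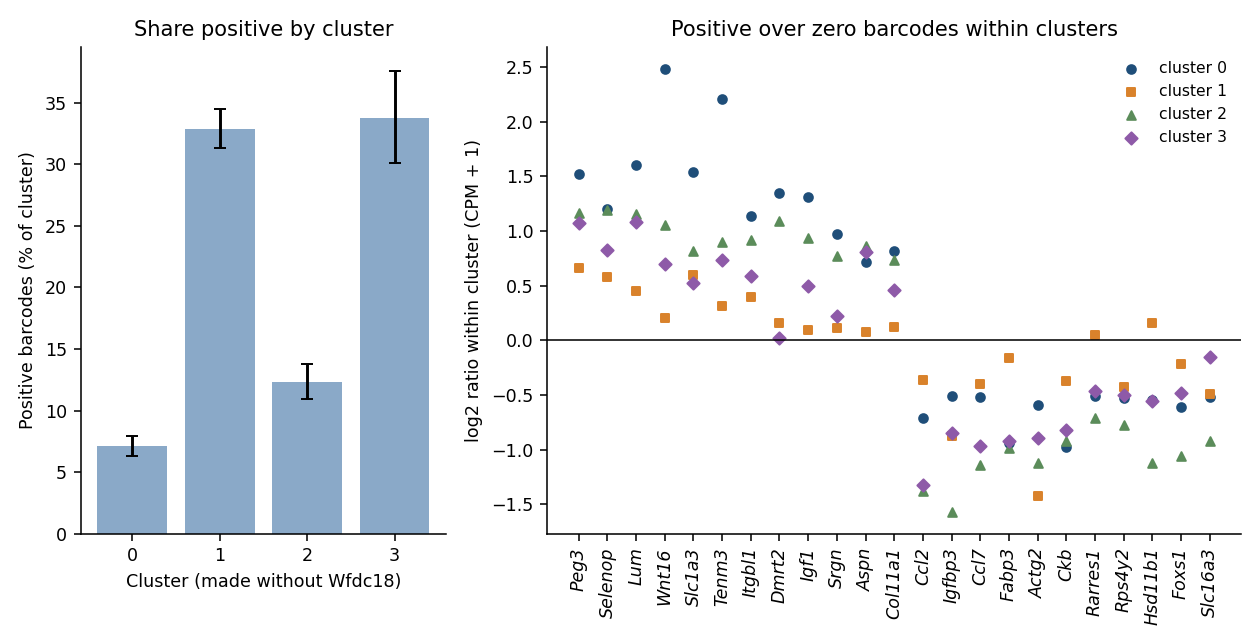
Left, share of barcodes that are positive in each of 4 clusters of the CGRP week 12 library, in % with exact 95% intervals. Right, log2 ratio of positive over zero barcodes within each cluster for the 12 highest and 11 lowest genes. The 12 highest are above 0 in every cluster, with the smallest median in cluster 1; Dmrt2 and Slc1a3 have their smallest value in cluster 3.

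Proliferation genes were lower in positive barcodes. Of 21 mitosis genes measured, 11 were at least 1.5-fold lower, 0 were 1.5-fold higher, and all 21 were below 0, with a median log2 ratio of -0.63. Cdc20, an activator of the anaphase-promoting complex, was at 23.0 CPM (21.3 to 24.8) in positive and 39.4 CPM (38.1 to 40.7) in zero barcodes. Ccnb2, a mitotic cyclin, was at 14.9 and 25.9 CPM, Hmmr at 8.26 and 14.5 CPM, and Birc5, survivin, at 4.10 and 7.48 CPM.

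All 16 S phase genes measured were below 0 as well, with a median of -0.29 and none 1.5-fold apart. Ccnd1, the G1 cyclin D1, was at 62.5 and 106 CPM (-0.76). Weighted to the clusters, the mitosis median was -0.01 and the S phase median -0.03. Over all 7099 genes 31.5% were above 0, and under TMM scaling 51.5%. The mitosis and S phase counts below 0 were the same under TMM and DESeq2 scaling.

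Contractile genes were lower too, with 15 of 16 below 0, or 14 under TMM and DESeq2 scaling, and a median of -0.40. Of these, 4 were at least 1.5-fold lower. Cnn1, calponin, was at 262 CPM (256 to 268) in positive and 417 CPM (413 to 421) in zero barcodes. Myh11, smooth muscle myosin, was at 10.8 and 23.3 CPM (-1.05), and Acta1 at 49.7 and 89.0 CPM (-0.83). Acta2, the smooth muscle actin of myofibroblasts, was at 1768 and 2543 CPM (-0.52) and did not reach 1.5-fold. The pericyte and smooth muscle markers, which share genes with this list, summed to 2050 CPM in positive and 2997 CPM in zero barcodes, with 8 of 10 listed and Rgs5 and Notch3 not listed; what part such cells have was not tested.

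Most fibrous matrix genes, 17 of 21, were within 1.5-fold. Of the 21 fibrous matrix genes, Lum and Col14a1 were at least 1.5-fold higher and Vcan and Tnc lower, and the median was -0.002. Col14a1 was at 271 CPM (265 to 277) and 173 CPM (171 to 176), a log2 ratio of 0.64. Vcan, a large proteoglycan of provisional matrix, was at 149 and 231 CPM (-0.63), and Tnc, tenascin C, at 7.30 and 12.2 CPM (-0.67).

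Cartilage and bone genes gave no common direction. Prg4, lubricin of joint surfaces, was at 3.86 and 8.37 CPM (-0.95), while Col11a1 of the same list was higher. Of 7 cartilage genes measured 5 were below 0, against 4862 of all 7099 genes. Under TMM scaling 4 were, against 3440 of all. Spp1, osteopontin, was at 214 and 333 CPM (-0.64), and 3 of 5 osteogenic genes measured were above 0, against 2237 of all 7099 genes. The medians of these short lists, -0.30 and 0.14, changed sign with a minimum of 20 CPM, to 0.12 and -0.32.

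Several BMP antagonists and a BMP-induced gene were lower. Of 20 BMP and TGF beta genes measured, 6 were at least 1.5-fold lower and 1 higher, and the median was -0.32. The antagonists Grem1, at 275 and 468 CPM (-0.77), and Nog, at 9.33 and 18.6 CPM (-0.92), were lower. Id3, a BMP-induced inhibitor of differentiation factors, was at 844 and 1352 CPM (-0.68). Within the Lum cluster the log2 ratios were only -0.009 for Grem1, -0.315 for Nog and -0.047 for Id3. In the other clusters those of these genes lay between -0.197 and -0.998. The gene that was higher was Chrd, another antagonist, at 15.3 and 9.36 CPM (0.65), named here after its values were seen.

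WNT ligands split. Wnt16 was higher, at 35.3 and 14.8 CPM, and Wnt4 and Wnt5a were lower, at 7.64 and 17.0 CPM (-1.06) and at 21 and 34.8 CPM (-0.70). Of 14 WNT genes measured, 7 were above and 7 below 0, against 2237 and 4862 of all 7099 genes. Of 9 insulin-like growth factor genes, Igf1 was the 1 at least 1.5-fold higher and Igfbp3 the 1 lower.

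Chemokines and cytokines also split, with 2 higher and 3 lower of 11 measured. Cxcl12, the stromal chemokine that retains progenitor cells, was at 119 CPM (115 to 123) and 74.6 CPM (72.8 to 76.4), a log2 ratio of 0.67, and C1s, a complement protease named after its values were seen, was at 12.3 and 7.59 CPM (0.63). Cxcl14 was at 6.02 and 14.7 CPM (-1.16). So Cxcl12 and Ccl2, both chemokines, lay on opposite sides.

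Ribosomal protein genes showed a small and uniform difference. All 30 were above 0, with a median of 0.16 and none at 1.5-fold, also under both other scalings. Hypoxia and glycolysis genes were mostly below 0, 20 of 23 with a median of -0.23, or 17 of 23 under TMM and DESeq2 scaling. Immediate early genes, which respond within minutes to stimulation or handling, were mostly above 0, 15 of 17 with a median of 0.17, and none of either list was 1.5-fold apart. Heat shock genes had a median of -0.14, with 15 of 16 below 0, or 12 of 16 under the other scalings. Over all 7099 genes 4862 were below 0, or 3440 under TMM and 3466 under DESeq2 scaling.

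**Figure D4:**
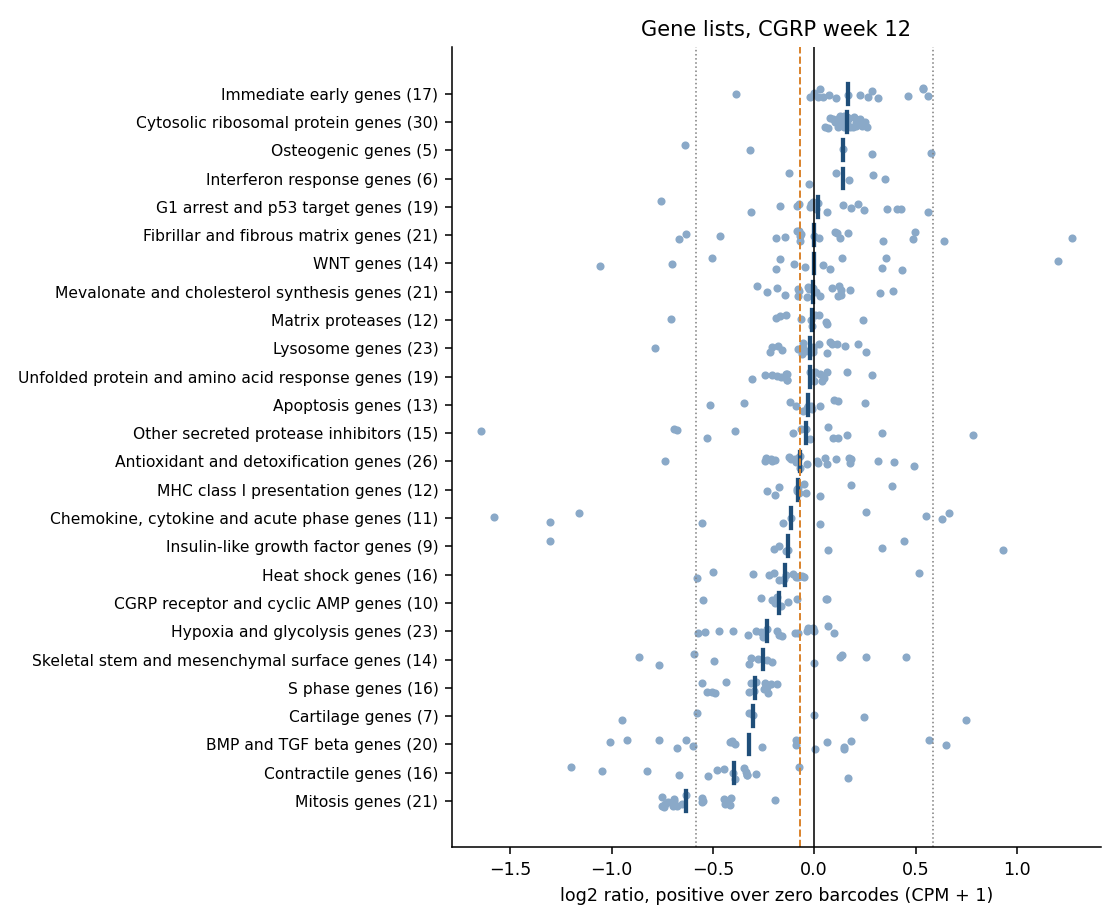
Log2 ratio of positive over zero barcodes in the CGRP week 12 library for every measured gene of each list with at least 5 measured genes (points; number in brackets), with the list's median (blue bar), the median of all genes (dashed, -0.07) and 1.5-fold (dotted). Mitosis genes lie wholly below 0 and ribosomal protein genes wholly above.

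Among genes of protease control, the WAP family itself showed little beyond Wfdc18. Wfdc1, another secreted WAP protein, was lower, at 191 CPM (186 to 196) and 279 CPM (276 to 283), a log2 ratio of -0.55, and Wfdc2 was at 17.1 and 19.2 CPM. Slpi had 38 UMIs in positive and 208 in zero barcodes, at 1.31 and 2.37 CPM. Wfikkn1, Wfdc15a and Wfdc15b had at most 51 UMIs in a class and overlapping intervals.

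Wfdc21 was the exception in this family. In RefSeq it is the next protein-coding gene after Wfdc18, and it had 16 UMIs in 16 positive barcodes and 2 UMIs in 2 zero barcodes. The ratio of its CPM was 24.2, with an exact counting interval of 5.69 to 217. These are few UMIs, and stray reads of a neighbouring gene were not tested.

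Other inhibitors moved both ways. Timp3, a matrix-bound inhibitor of metalloproteases, was at 18.6 and 10.4 CPM (0.78), Serpinb1a at 17.0 and 27.8 CPM (-0.68) and Spink8 at 2.10 and 8.68 CPM (-1.64). Of 15 measured, 1 was at least 1.5-fold higher and 3 lower. The log2 ratio of Timp3 turned to -0.19 when zero barcodes were weighted to the clusters. Of 12 matrix proteases 1 was lower, Adamts9, at 6.20 and 10.7 CPM (-0.71).

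Of 14 stromal surface genes, 10 were below 0, against 4862 of all 7099 genes, and under TMM scaling 9 were, against 3440 of all. Those 1.5-fold lower included Eng, an accessory TGF beta receptor, at 16.8 and 31.5 CPM (-0.87), and Twist2, a transcription factor, at 7.50 and 11.8 CPM (-0.60). Among lysosome genes Ctsl, cathepsin L, was at 1270 and 2189 CPM (-0.78). Among antioxidant genes Gpx3, a secreted glutathione peroxidase, was at 506 and 842 CPM (-0.73). In both lists it was the only gene of the measured 23 and 26 that was 1.5-fold apart.

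The genes of the CGRP receptor itself were scarcely seen in either class. The CGRP receptor consists of Calcrl with Ramp1, and Calcrl had 11 UMIs in positive and 51 in zero barcodes, Ramp1 3 and 5. At this depth a difference in either was not detectable, as their intervals overlapped. Ramp3, which with Calcrl forms an adrenomedullin receptor, was at 64.5 and 94.8 CPM (-0.55). Of 10 CGRP receptor and cyclic AMP genes measured, none was 1.5-fold apart.

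Positive barcodes of libraries that the selection did not use were also compared, with far fewer cells. The week 12 control library had 73 of them (1196499 UMIs in all) and the week 12 ZOL library 133 (2240885 UMIs). The positive classes there are small, and large ratios were more frequent: of 7231 genes in the control library 5.92% were at least 1.5-fold higher and 9.28% lower, and of 7016 in the ZOL library 1.38% and 2.32%. The counts below are to be read against those shares.

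In the control library, 41 of the 51 higher genes were measured, of which 34 were above 0 and 20 at least 1.5-fold higher. Over all its genes 47.7% were above 0. In the ZOL library 31 of 37 were above 0 and 11 were at least 1.5-fold higher, with 50.8% of all genes above 0. Of the 131 lower genes, 80 of 105 measured in the control library and 67 of 96 in the ZOL library were below 0, and 47 and 24 were at least 1.5-fold lower.

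Lum was higher in the positive barcodes of both. In the control library it was at 15 CPM (8.92 to 23.8) in positive and 5.74 CPM in zero barcodes, and in the ZOL library at 219 CPM (200.2 to 239) and 137 CPM. Igf1 was at 272 CPM (244 to 304) and 156 CPM in the control library and at 216 CPM (198 to 237) and 140 CPM in the ZOL library. With Lum and Igf1, Srgn, Slc1a3 and Mgp were at least 1.5-fold higher in all 3 libraries, 5 of the 22 higher genes with a mean of at least 20 CPM, and 17 of the 22 were above 0 in both others. The shares of all genes that were so in both others were not counted, so these joint counts have no background.

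Of the 57 lower genes with a mean of at least 20 CPM, 13 were at least 1.5-fold lower in both other libraries. Here too the share of all genes that were lower by as much in both was not counted. The 13 were the mitosis genes Cdc20, Ccnb1, Ccnb2, Cdca8, Tpx2, Cenpf and Prc1, and Actg2, Pgf, Foxs1, Serpinb1a, Eng and Rarres1. Actg2 was at 11.7 CPM (6.40 to 19.6) and 62.1 CPM in the control library and at 34.4 CPM (27.1 to 43.0) and 132 CPM in the ZOL library. The mitosis median was -1.41 in the control and -0.90 in the ZOL library, and the contractile median -0.65 and -0.35.

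The chemokine pattern was not shared by all. Ccl2 was lower in positive barcodes of the control library, at 14.2 CPM (8.28 to 22.8) against 52.9 CPM, but in the ZOL library it was at 254 CPM (234 to 276) against 208 CPM. Igfbp3 was at 66.0 CPM (52.3 to 82.3) against 325 CPM in the control library and at 677 CPM (643 to 712) against 727 CPM in the ZOL library. The ribosomal median, 0.16 in the CGRP library, was -0.17 in the control and 0.004 in the ZOL library. Whether libraries differ in these ratios was not tested.

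**Figure D5:**
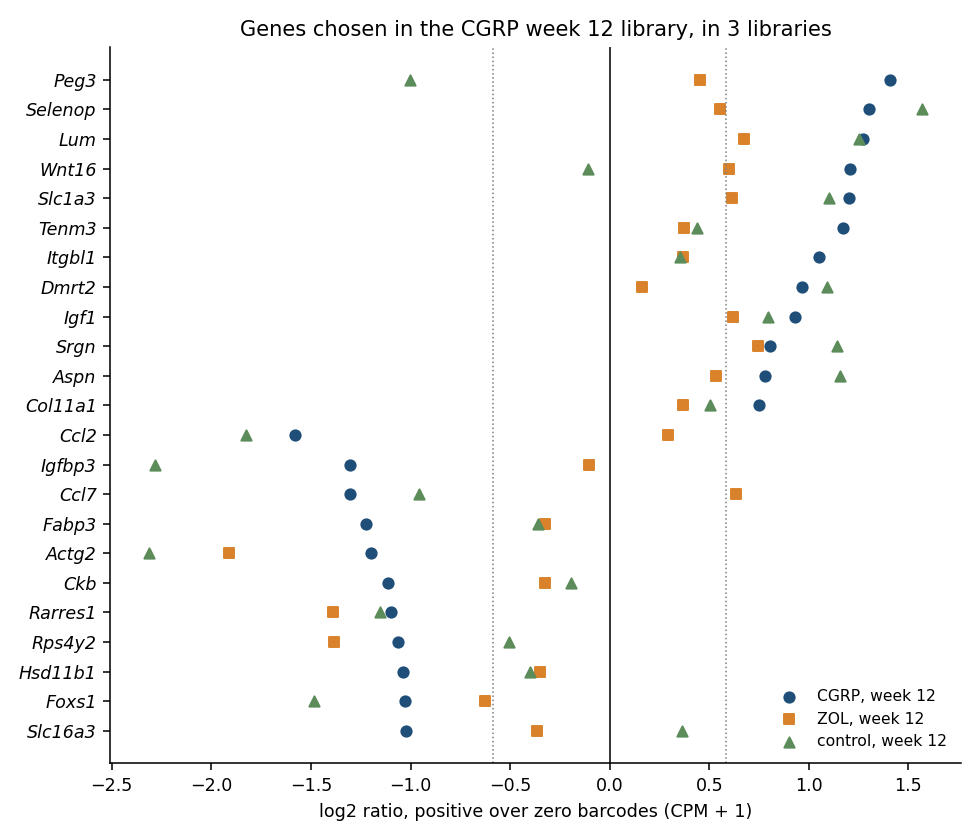
Log2 ratio of positive over zero barcodes for the 12 highest and 11 lowest genes of the CGRP week 12 library (circles), with the same genes in the ZOL (squares) and control (triangles) libraries at week 12; dotted lines mark 1.5-fold. Of the 12 highest, 10 are above 0 in the control and 12 in the ZOL library, and of the 11 lowest 10 and 9 are below 0.

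Lum-bearing cells were not by themselves Wfdc18-positive. With barcodes thinned to 5000 UMIs, 36.1% of barcodes in the CGRP week 12 library had a Lum UMI, and of these 38.4% (36.8% to 39.97%) had a Wfdc18 UMI, against 17.2% (16.3% to 18.1%) of barcodes without Lum. In the week 12 ZOL library a similar share of barcodes, 40.8%, had a Lum UMI, but 3.88% of them (3.29% to 4.55%) had Wfdc18. In the other 6 libraries it was 0.190% to 3.78%. The ZOL and CGRP libraries at week 12 thus had like shares of Lum barcodes and unlike shares of Wfdc18. Of the other companion genes looked at, Igf1 and Selenop were most frequent in the CGRP week 12 library, and Scx and Col11a1 were not. An Igf1 UMI was in 54.6% of its barcodes, against 31.5% to 34.9% in the other week 12 libraries and 5.46% to 13.3% at week 4. For Selenop it was 37.4%, against 9.62% to 29.9% in the other 7 libraries. For Scx, a tendon marker, it was 62.6%, against 63.2% to 85.4% in the other 7. For Col11a1 it was 86.55%, against 53.4% in the week 12 Mg library and 95.5% to 99.75% in the rest.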

How the data were processed

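The authors deposited a table of counts per library, genes by cell barcodes, holding whole numbers of UMIs (the values were checked to be whole). STAR and Rnor_6.0 are named per the submitters' processing notes; the aligner's version, the annotation, cell calling and the treatment of reads mapping to several places are not stated there. Libraries held 141264724 to 160177900 UMIs. Every column matched a library (0 unmapped).

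Classes needed 5000 UMIs. Counts of a class were summed, Wfdc18 left out, scaled to CPM, and compared as log2 of CPM plus a pseudocount of 1, with 95% exact Poisson or Clopper-Pearson intervals. Each UMI was taken as independent. Thinning drew 5000 UMIs per barcode without replacement. Clusters used 2000 variable genes, 30 components, 15 neighbours and Leiden resolution 0.3 (scanpy 1.11.5, leidenalg 0.10.2). No doublet caller was run. Scaling alternatives were TMM (edgeR 4.0.16) and DESeq2 1.42.0 size factors. The ratio step was tested on simulated data.

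Named genes were the 12 highest and 12 lowest with a mean of at least 20 CPM, up to 4 members per list at least 1.5-fold apart, and listed WAP genes; others were named after their values were seen, and some items are not reported here. A test across other libraries needed 3 libraries with at least 50 positive barcodes; 2 had them, and it was not run. Members and lists were chosen with earlier results of these data known. Symbols and promoters come from RefSeq, GRCr8; that is another build than the files', so no other coordinates are given.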

Additional observations from a re-analysis of the deposited data

Results flagged for a closer look

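Some named genes were at least 1.5-fold apart in opposite directions in the CGRP week 12 library and in another library. These differences between libraries were not tested. Peg3 had a log2 ratio of positive over zero barcodes of 1.41 in the CGRP week 12 library and of -1.0 in the week 12 control library, where the positive sum was 15 UMIs, at 12.5 CPM against 26.1 CPM. Ccl7 had -1.30 in the CGRP week 12 library and 0.63 in the week 12 ZOL library, at 204 CPM in positive and 131 CPM in zero barcodes there.

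The other genes of this kind had opposite signs in the week 12 control library. Spp1 had -0.64 in the CGRP week 12 library and 0.72 in the control library, at 490 and 296 CPM. Gpx3 had -0.73 and 0.60, at 404 and 267 CPM in the control library. Grem1 had -0.77 and 0.88, at 338 and 183 CPM in the control library.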

How the results depend on the processing

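The 24 highest and lowest genes, chosen on these same barcodes, kept their direction under all 11 alternatives. Several of these alternatives could not have changed it. Other CPM minimums leave each gene's ratio as it was, and a pseudocount of 5 CPM cannot change a sign. TMM and DESeq2 factors moved the median of all genes from -0.07 to 0.005 and 0.003, far less than these genes' ratios. Most numbers of genes at least 1.5-fold higher and lower moved: 22 and 57 with a mean of at least 20 CPM, 92 and 212 with no minimum, 82 and 224 with at least 10 Wfdc18 UMIs, 19 and 46 with at least 1, 96 and 280 with classes made after thinning, and 16 and 21 with zero barcodes weighted to clusters, an alternative added after seeing the data. With a pseudocount of 5 CPM, 78 were lower. Timp3 turned to -0.19 under the cluster weighting. The cause was not tested. Stricter minimums leave fewer genes, and the clusters were built from these same genes.

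The share of positive barcodes moved with the threshold in every library. With at least 1 UMI it was 37.4% in CGRP week 12, 6.81% in ZOL week 12, 5.89% in control week 12 and 2.60% in Mg week 12, and at week 4 2.03% (control), 0.823% (ZOL), 2.22% (CGRP) and 0.839% (Mg). With at least 10 UMIs, in the same order, it was 8.11%, 0.356%, 0.180% and 0.0750%, then 0.0147%, 0%, 0.0621% and 0.0138%. Thinned to 5000 UMIs it was 9.99%, 0.485%, 0.296% and 0.138%, then 0.0147%, 0.0392%, 0.0993% and 0.0138%. With at least 10000 total UMIs the CGRP week 12 share was 19.4%. CGRP week 12 was highest each time.

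The planned edgeR test over other libraries and its alternatives were not run, as its rule asked for 3 libraries and 2 had enough positive barcodes. No paired analysis was possible by replicate number, because the labels give none and each group is 1 library; the pairs of weeks within a treatment are in the report. With 73 and 133 positive barcodes, genes under about 20 CPM rest on few UMIs in the control and ZOL libraries.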
